A study of Mus musculus with 20 samples.

Results

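The 9 genes described here encode the killing proteins of cytotoxic lymphocyte granules: the granzymes Gzma, Gzmb, Gzmc, Gzmd, Gzme, Gzmf, Gzmg and Gzmk, and the pore-forming protein perforin, Prf1. They were chosen by name from 19938 genes, each read from the 1 probe set that carried its symbol alone. Gene expression was measured on 20 arrays of LLC-1 tumors. LLC-1 is a line of Lewis lung carcinoma cells, implanted here into mice of the C57Bl/6 strain. The tumors were injected with adenoviral vectors for p19Arf and IFNbeta combined, IFNbeta alone, p19Arf alone, or, as the control, enhanced green fluorescent protein (eGFP). Each group had 5 arrays. Every group, the eGFP control included, received the same schedule of 5 intratumoral injections of 25 µl at 48 h intervals. On the log10 scale the viral load was 8. IFNbeta, interferon beta, is a cytokine that cells release during viral infection, and the tumor suppressor p19Arf stabilises p53. The labels number the tumors but do not say from how many mice they came or the age of the mice, so p-values measure only the spread between these samples.

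Cytotoxic T cells and natural killer (NK) cells store granzymes, which are serine proteases, in granules together with perforin. On contact with a target cell the granules are released, perforin forms pores, and the granzymes enter the target and cleave proteins whose loss leads to its death. Type I interferon is known to raise the killing activity of both cell types. A tumor is a mixture of cells, so on these arrays fewer cytotoxic cells and less granzyme RNA per cell cannot be told apart.

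The values are log2 expression levels as the authors deposited them, with array medians between 7.49 and 7.61, and the number of arrays limits their precision. The SD over all probe sets of an array, its spread, lay between 1.99 and 2.15, and the 5 arrays of lowest spread were p19Arf+IFNbeta replicates 4 and 5, IFNbeta replicate 3, and p19Arf replicates 2 and 4. IFNbeta replicate 3 also stood apart in skin epidermis markers, with a mean level of 8.98 over 7 genes, against a group median of 6.40. Means of Ifnb1 were 6.03, 6.21, 6.00 and 6.10 in the p19Arf+IFNbeta, IFNbeta, p19Arf and eGFP groups, and those of Cdkn2a, the gene of p19Arf, were 7.55, 7.38, 7.58 and 7.43. Of the carcinoma and proliferation markers, Vim had group means of 13.5 to 13.7 and Mki67 of 11.0 to 11.3, while the epithelial markers Epcam and Krt8 had 6.34 to 6.49 and 7.60 to 7.85. The table carries no detection calls, so absence cannot be read from it.

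The probe sets fall in gene neighbourhoods that matter for reading the values. Gzma and Gzmk lie on mouse chromosome 13, Prf1 on chromosome 10 and the other 6 on chromosome 14, in the order Gzme, Gzmd, Gzmg, Gzmf, Gzmc and Gzmb, with a further granzyme, Gzmn, between Gzmg and Gzmf. Within this row the windows before the start sites of Gzmc to Gzmg are alike, and they are printed here because the levels of these 5 genes were also correlated over the arrays. Each line below gives the 120 bases before the start site, 5′ to 3′ on the gene's strand, from RefSeq on GRCm38.p6 (all on the minus strand), with capitals for the 20 bases that all 5 share.
Gzmc: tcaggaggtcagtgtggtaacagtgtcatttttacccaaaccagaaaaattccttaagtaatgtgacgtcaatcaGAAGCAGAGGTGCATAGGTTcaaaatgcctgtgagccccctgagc
Gzmd: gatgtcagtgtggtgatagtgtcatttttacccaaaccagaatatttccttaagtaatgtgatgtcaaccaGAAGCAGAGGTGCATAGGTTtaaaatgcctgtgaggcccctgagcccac
Gzme: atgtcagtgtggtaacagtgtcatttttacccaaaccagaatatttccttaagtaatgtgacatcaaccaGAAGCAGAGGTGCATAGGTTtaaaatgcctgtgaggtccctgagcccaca
Gzmf: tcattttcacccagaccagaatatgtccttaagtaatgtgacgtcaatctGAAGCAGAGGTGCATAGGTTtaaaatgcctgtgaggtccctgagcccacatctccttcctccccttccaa
Gzmg: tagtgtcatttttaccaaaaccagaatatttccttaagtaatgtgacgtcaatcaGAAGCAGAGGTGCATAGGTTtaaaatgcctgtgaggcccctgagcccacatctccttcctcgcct
The windows are chr14:56234658-56234777 for Gzmc, chr14:56132594-56132713 for Gzmd, chr14:56120626-56120745 for Gzme, chr14:56211408-56211527 for Gzmf and chr14:56159580-56159699 for Gzmg. Of 32851 such upstream windows of 250 bases, read on the gene's strand only, 5 held the stretch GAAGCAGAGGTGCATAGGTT. They were those of Gzmc, Gzmd, Gzme, Gzmf and Gzmg. The stretch begins 45 bases before the start in Gzmc, 49 in Gzmd, 50 in Gzme, 70 in Gzmf and 65 in Gzmg. Over 250 bases the identity between pairs of these 5 genes ran from 71.5% to 94.8% (10 pairs, median 79.2%), and Gzmd and Gzme were the closest pair. Gzmb had 47.3% to 52.2% with them, which lay in the range of the remaining 21 pairs of the 9 genes (46.2% to 52.7%).

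Motifs were searched as plain letters on both strands of the 250-base windows. The cAMP response element TGACGTCA was found in Gzmc, Gzmf and Gzmg and in 1.55% of all windows, in each case just before the shared stretch. The AP-1 site TGANTCA was found in Gzmb alone (6.75% of windows), the RUNX site TGTGGTT in 7 members, all but Gzmk and Prf1 (4.40%), and the core of the interferon-stimulated response element, GAAANNGAA, in Gzma alone, with 2 matches (7.13%). The T-box site AGGTGTGA (1.12%) and the gamma-activated site TTCNNNGAA (7.02%) had no match in the 9 windows. A match is a description of letters and not of binding. The windows of Gzmc to Gzmg are alike, so their RUNX and cAMP response element matches are not independent of each other. The windows of Gzmb (chr14:56262335-56262454) and Gzma (chr13:113100982-113101101), both on the minus strand, are shown for the contrast with the 5 above, with the matches in capitals: AP-1 and then RUNX in Gzmb, and in Gzma the response element core on each strand and then RUNX.
Gzmb: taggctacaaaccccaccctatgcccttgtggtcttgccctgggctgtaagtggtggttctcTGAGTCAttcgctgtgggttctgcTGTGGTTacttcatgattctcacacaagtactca
Gzma: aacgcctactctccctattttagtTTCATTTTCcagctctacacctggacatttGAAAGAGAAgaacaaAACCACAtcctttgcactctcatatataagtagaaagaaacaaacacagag

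With all arrays included, all 9 members had a higher mean in IFNbeta tumors than in p19Arf tumors and than in eGFP tumors. The differences were below 1 log2 unit for every member except Gzmb, and no member passed the test in any comparison. The threshold was an adjusted p under 0.05 in limma, with adjustment over all 19938 genes. In IFNbeta against eGFP 0 of 9 members passed (0% of all genes), 9 of 9 had a higher mean (44.2% of all genes), and the median member difference was 0.34 against -0.02 over all genes. Gzmb was the member whose groups did not overlap (0.552% of all genes were above in this way) and the only one with an unadjusted p under 0.05 (1.34% of all genes). Without eGFP replicate 3, 7 of 9 had a higher mean, with Gzmd at -0.02 and Gzme at -0.005.

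The widest separation lay between the 2 single vectors. In IFNbeta against p19Arf, 9 of 9 members had a higher mean (45.5% of all genes), the median difference was 0.69 against -0.03 over all genes, and 2 members, Gzmb and Gzmc, did not overlap between the groups (0.757%). An unadjusted p under 0.05 was reached by 5 members, Gzmb, Gzmc, Gzmf, Gzmg and Prf1 (8.48% of all genes in this direction), yet their adjusted p-values ran from 0.170 to 0.213, and 0 of 9 passed (0.0251% of all genes passed, 5 genes). Without IFNbeta replicate 3 or without p19Arf replicate 1 the count of higher means was 8 of 9, since Gzma was then at -0.02 and -0.03. With array weights, an alternative that gives less variable arrays more say, these 5 members passed, but so did 4495 of the 19938 genes.

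Against eGFP, p19Arf tumors had a lower mean for 7 of 9 members, with a median difference of -0.32 against 0.02 over all genes, and 0 of 9 passed (0% of all genes). Gzmc was the member below all eGFP arrays (0.441% of all genes) and the only one with a lower mean at an unadjusted p under 0.05 (4.4% of all genes). In p19Arf+IFNbeta against eGFP, 6 members had a higher and 3 a lower mean, with a median difference of 0.18 against 0.02 over all genes. Again 0 of 9 passed (0%), and Gzma alone had a higher mean at an unadjusted p under 0.05 (6.18% of all genes). The count of higher means moved between 5 and 9 of 9 as single arrays were left out, with 5 without eGFP replicate 3 or p19Arf+IFNbeta replicate 3 or 4, and 9 without eGFP replicate 2.

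The combination was also set against each of its parts. In p19Arf+IFNbeta against p19Arf all 9 members had a higher mean (46.9% of all genes), with a median difference of 0.50 against -0.01. None of the 9 passed (0%) or was free of overlap (0.16%), and Gzmc and Gzmg had an unadjusted p under 0.05 (1.83%). Gzma was at -0.03 without p19Arf+IFNbeta replicate 1, and Gzme at -0.01 without p19Arf+IFNbeta replicate 4. In p19Arf+IFNbeta against IFNbeta 7 members had a lower mean, 0 passed (0%), and the median difference was -0.14 against 0.05. The interaction, which asks whether the 2 inserts add on the log2 scale, passed for no member (0% of all genes), and the smallest unadjusted p was 0.115, for Gzmc.

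Averaged over the design, the 10 arrays with an IFNbeta insert had a higher mean than the 10 without it for 9 of 9 members (41.5% of all genes), a count that held whichever array was left out. The median difference was 0.42 against -0.02, and Gzmb, Gzmc, Gzmf and Gzmg had an unadjusted p under 0.05 (2.77%), but none passed (0%). The 10 arrays with a p19Arf insert had a lower mean for 7 members, with a median difference of -0.21 against 0.04. Gzmb and Gzmc reached an unadjusted p under 0.05 there, as did 18.0% of all genes in this direction, and none passed (0%). For the member counts of lower means, and of higher means in p19Arf+IFNbeta against eGFP, the share of all genes was not counted. The comparisons with eGFP share its 5 arrays, so their member values are not independent of each other.

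**Figure D1:**
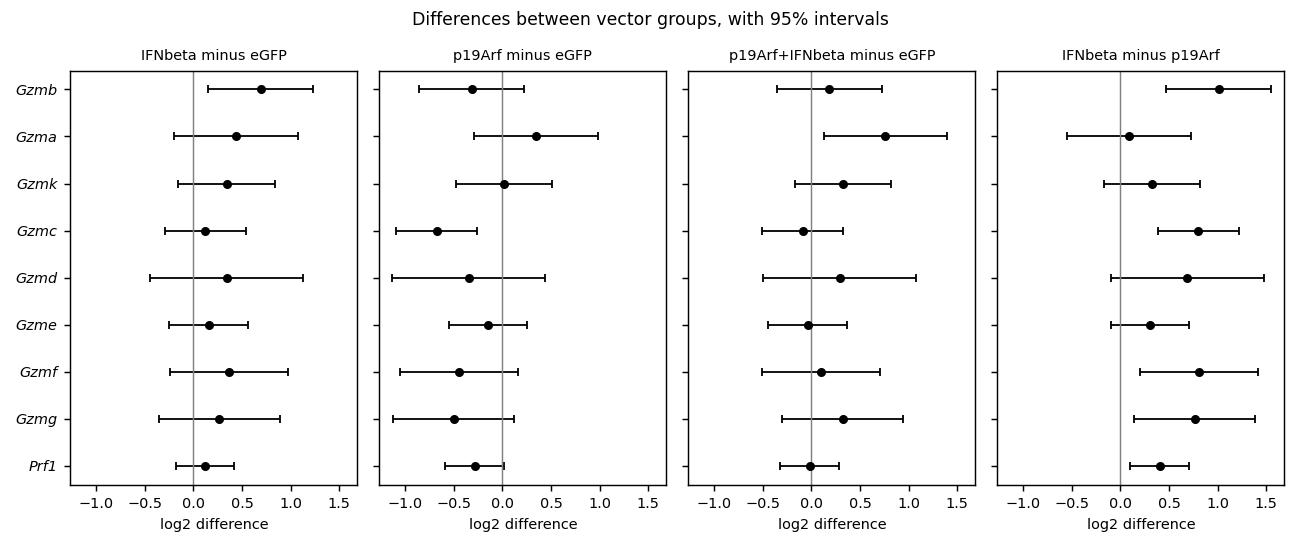
Log2 difference between vector groups for each member (rows), with 95% confidence intervals from the fit over all genes. The panels show IFNbeta minus eGFP, p19Arf minus eGFP, p19Arf+IFNbeta minus eGFP, and IFNbeta minus p19Arf. In the last panel the intervals of Gzmb (0.47 to 1.55), Gzmc, Gzmf, Gzmg and Prf1 lie above 0.

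Prf1, the perforin that opens the way for granzymes (probe set 10363475), varied least of the 9 members across all 20 arrays, from 7.52 to 8.73. Its levels were 8.07, 8.22, 8.49, 8.27 and 7.96 in p19Arf+IFNbeta tumors (8.20 ± 0.20), and 8.10, 8.44, 8.03, 8.41 and 8.73 in IFNbeta tumors (8.34 ± 0.28). In p19Arf tumors they were 8.07, 7.52, 8.04, 8.33 and 7.73 (7.94 ± 0.32), and in eGFP tumors 8.05, 8.34, 8.35, 8.09 and 8.28 (8.22 ± 0.14; SD, n = 5 here and below). The 4 groups overlapped, although p19Arf replicates 2 and 5 lay below every array of the other groups. The difference of IFNbeta from p19Arf was 0.40 (SE 0.14, adjusted p = 0.201), and IFNbeta differed from eGFP by 0.12 (95% interval -0.18 to 0.42).

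Gzmb, granzyme B, cleaves after aspartate and acts on caspases and Bid in the target cell (probe set 10420308). It lay at 10.31, 9.30, 9.03, 8.54 and 8.12 in p19Arf+IFNbeta tumors (9.06 ± 0.83), and at 9.67, 9.25, 9.77, 9.22 and 9.95 in IFNbeta tumors (9.57 ± 0.32). It lay at 8.80, 8.32, 8.77, 8.50 and 8.41 in p19Arf tumors (8.56 ± 0.21), and at 8.83, 9.13, 8.56, 8.98 and 8.89 in eGFP tumors (8.88 ± 0.21). All 5 IFNbeta arrays were above all 10 arrays of the p19Arf and eGFP groups, while the combination group spanned the whole range and held both the highest and the lowest of the 20 arrays. The difference of IFNbeta from eGFP was 0.69 (SE 0.26, unadjusted p = 0.0143, adjusted p = 0.9998), and from p19Arf it was 1.01 (SE 0.26, adjusted p = 0.170). Leaving out any array kept the second between 0.92 and 1.10.

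The combination group had a lower Gzmb mean than IFNbeta, with a difference of -0.51 (SE 0.26, adjusted p = 0.208), and this value rested on few arrays. Without the 5 arrays of lowest spread, which include the combination arrays at 8.54 and 8.12, it was 0.02, and with the spread as a covariate it was -0.21. The Gzmb level had r = 0.53 with the spread over the 20 arrays and 0.44 over the 15 others. Without p19Arf+IFNbeta replicate 1, the array at 10.31, the difference from eGFP changed to -0.13, against 0.18 with it. The part of the spread in these values was not tested.

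**Figure D2:**
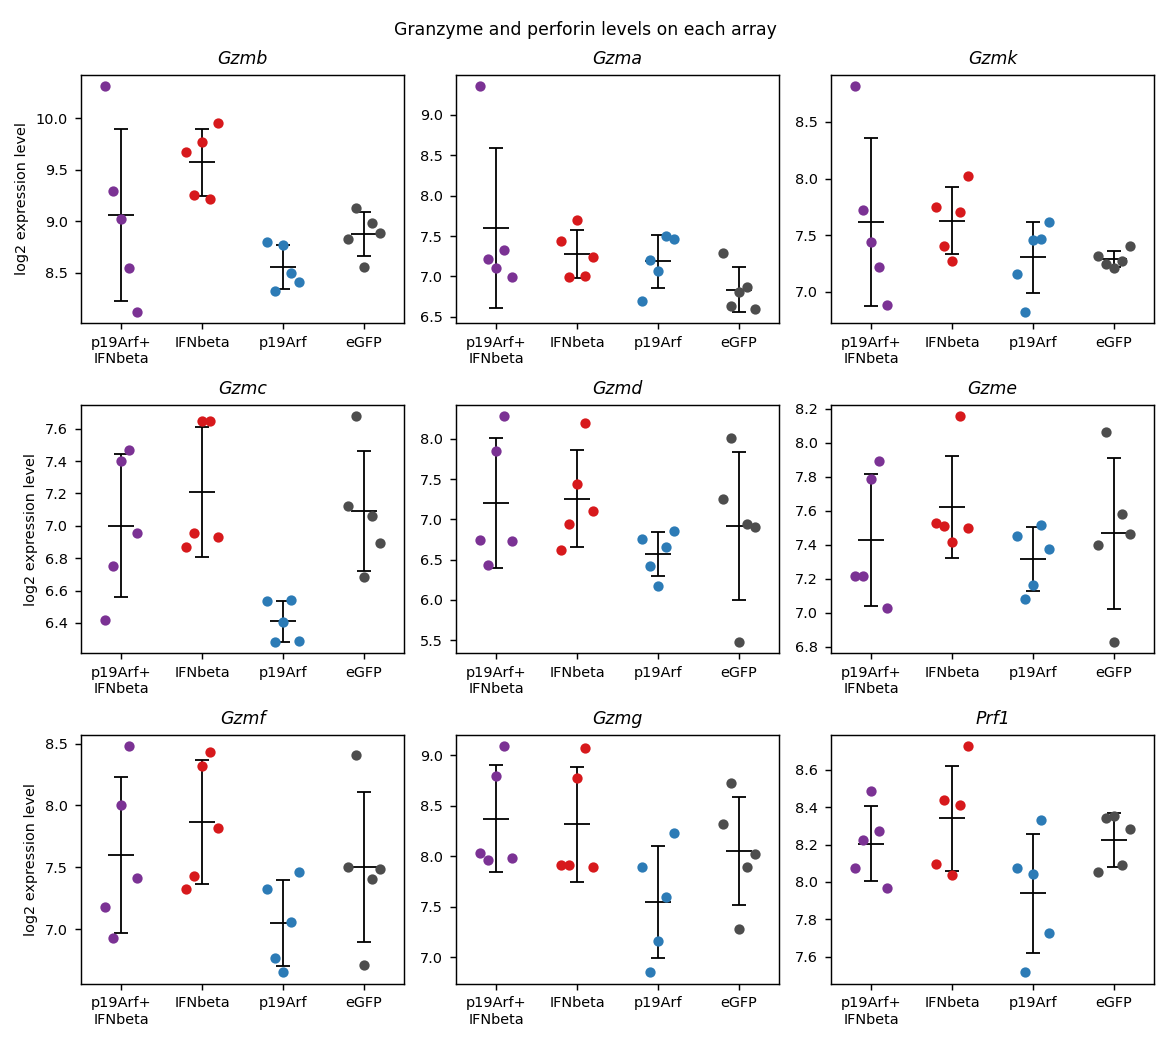
Log2 expression level (y axis) of each member in the 4 vector groups, with 1 dot per array and bars for the mean and SD (n = 5 each). In the Gzmb panel the 5 IFNbeta dots (9.22 to 9.95) sit above all p19Arf and eGFP dots, and in the Gzmc panel the 5 p19Arf dots (6.28 to 6.54) sit below all IFNbeta and eGFP dots.

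Gzma and Gzmk, neighbouring genes whose proteins cleave after basic residues, were each highest on a single combination array. Gzma (probe set 10412211) was at 9.36, 7.22, 7.10, 7.32 and 6.996 in p19Arf+IFNbeta tumors (7.60 ± 0.99), and at 7.44, 6.99, 7.69, 7.01 and 7.24 in IFNbeta tumors (7.27 ± 0.30). It was at 6.70, 7.20, 7.07, 7.50 and 7.46 in p19Arf tumors (7.19 ± 0.32), and at 7.29, 6.63, 6.81, 6.87 and 6.60 in eGFP tumors (6.84 ± 0.28). The groups overlapped, with 4 of the 5 eGFP arrays below 6.9. The difference of p19Arf+IFNbeta from eGFP was 0.76 (SE 0.31, adjusted p = 0.239), but 0.32 without p19Arf+IFNbeta replicate 1. Without that array the difference from IFNbeta was -0.11, against 0.32 with it.

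Gzmk (probe set 10412218) was at 8.82, 7.72, 7.44, 7.21 and 6.88 in p19Arf+IFNbeta tumors (7.61 ± 0.74), and at 7.74, 7.40, 7.27, 7.71 and 8.02 in IFNbeta tumors (7.63 ± 0.30). It was at 7.16, 6.82, 7.46, 7.46 and 7.61 in p19Arf tumors (7.30 ± 0.32), and at 7.32, 7.24, 7.21, 7.27 and 7.40 in eGFP tumors (7.29 ± 0.07). The eGFP arrays lay close together, with the combination and p19Arf groups on both sides of them. In the IFNbeta group 4 values exceeded the highest eGFP value and 1 was within the eGFP range, so these groups also overlapped. The difference of IFNbeta from eGFP was 0.34 (95% interval -0.16 to 0.84, adjusted p = 0.9998). That of p19Arf+IFNbeta was 0.33, and 0.02 without its replicate 1, while that of p19Arf was 0.02, or -0.02 after centring each array on its median.

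Gzmc is the member of the chromosome 14 row next to Gzmb, and granzyme C is a protease made by activated cytotoxic lymphocytes of mice (probe set 10420302). Its levels were 6.42, 6.75, 7.40, 7.47 and 6.96 in p19Arf+IFNbeta tumors (6.9996 ± 0.44), and 6.87, 6.95, 7.65, 7.65 and 6.93 in IFNbeta tumors (7.21 ± 0.40). They were 6.54, 6.28, 6.41, 6.54 and 6.29 in p19Arf tumors (6.41 ± 0.13), and 7.12, 7.68, 6.69, 7.06 and 6.90 in eGFP tumors (7.09 ± 0.37). The 5 p19Arf arrays lay within 0.26 of each other and below every IFNbeta and eGFP array, and p19Arf+IFNbeta replicate 1 was the only combination array in their range. The difference of p19Arf from eGFP was -0.68 (SE 0.20, unadjusted p = 0.0028, adjusted p = 0.661), the 48th smallest p of 19938 genes. IFNbeta differed from p19Arf by 0.80 (SE 0.20, adjusted p = 0.170) and p19Arf+IFNbeta from p19Arf by 0.59 (SE 0.20, unadjusted p = 0.0079, adjusted p = 0.998).

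Gzmd, Gzme, Gzmf and Gzmg, granzymes known in mice from activated T cells and uterine NK cells, all had their lowest group mean in p19Arf tumors. Gzmd (probe set 10420274) was at 6.75, 6.43, 7.84, 8.28 and 6.73 in p19Arf+IFNbeta tumors and at 6.62, 6.94, 7.43, 8.19 and 7.10 in IFNbeta tumors. It was at 6.75, 6.42, 6.17, 6.65 and 6.85 in p19Arf tumors and at 7.26, 8.01, 5.47, 6.94 and 6.90 in eGFP tumors, so eGFP replicate 3 was the lowest of all 20 arrays. Its group means were 7.21 ± 0.81, 7.26 ± 0.60, 6.57 ± 0.27 and 6.92 ± 0.92 in that order. The difference of p19Arf from eGFP was -0.35 (95% interval -1.13 to 0.44), and it moved to -0.71 without eGFP replicate 3 and to -0.07 without eGFP replicate 2.

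Gzmg (probe set 10420280) was at 8.03, 7.97, 8.79, 9.09 and 7.98 in p19Arf+IFNbeta tumors (8.37 ± 0.53), and at 7.91, 7.91, 8.77, 9.07 and 7.89 in IFNbeta tumors (8.31 ± 0.57). It was at 7.90, 6.85, 7.16, 7.60 and 8.23 in p19Arf tumors (7.55 ± 0.55), and at 8.31, 8.73, 7.28, 7.89 and 8.02 in eGFP tumors (8.05 ± 0.53). The combination group overlapped with p19Arf through p19Arf replicate 5 alone, and the IFNbeta group through p19Arf replicates 1 and 5. Gzmg had the largest member difference of the combination from p19Arf, 0.83 (SE 0.30, unadjusted p = 0.0116, adjusted p = 0.998), and IFNbeta differed from p19Arf by 0.77 (SE 0.30, adjusted p = 0.213).

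Gzmf (probe set 10420295) averaged 7.60 ± 0.63 in p19Arf+IFNbeta, 7.86 ± 0.50 in IFNbeta, 7.05 ± 0.35 in p19Arf and 7.50 ± 0.60 in eGFP tumors, and ran from 6.65 to 8.48 over the 20 arrays. IFNbeta differed from p19Arf by 0.81 (SE 0.29, adjusted p = 0.201), with 3 of 5 IFNbeta arrays above all p19Arf arrays. Gzme (probe set 10420268) had the smallest span of group means of the 9 members, with 7.43 ± 0.39, 7.62 ± 0.30, 7.32 ± 0.19 and 7.47 ± 0.44 in the same order. Its difference of IFNbeta from p19Arf was 0.30 (95% interval -0.10 to 0.71). The probe sets of these 5 paralogs may share sequence, probe sequences were not used here, and the values of any 1 of them are uncertain to that extent.

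From array to array Gzmc to Gzmg were closely correlated, and the other members less so. Pearson's r is given as a description over the 20 arrays, which each pair of genes shares, with no test. Within Gzmc to Gzmg the 10 pairs had r of 0.71 to 0.94 (median 0.85, Spearman's rho 0.49 to 0.97), and 0.75 to 0.94 for deviations from the group means. Leaving out, for each pair, the 2 arrays farthest from the median of the gene first in name order left 0.68 to 0.94. Among Gzma, Gzmb and Gzmk the 3 pairs had 0.54 to 0.77 (rho 0.19 to 0.63), but 0.19 to 0.67 without p19Arf+IFNbeta replicate 1. The 15 pairs of 1 gene from each of these sets had -0.25 to 0.24 (median 0.04), but -0.07 to 0.44 without that array, when Gzmb had 0.44 with Gzmc and 0.19 with Gzma. For the levels, the contrast of Gzmb with the paralogs thus depended on that array, while Gzmb and Gzmk had 0.67 without it. For deviations from the group means without that array, Gzmb had 0.04 to 0.17 with the paralogs, 0.07 with Gzma and 0.56 with Gzmk. Prf1 had -0.19 to 0.48 with the other 8 members.

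The arrays of a group differed in the mean of the 5 paralogs. Averaged over Gzmc to Gzmg, p19Arf+IFNbeta replicates 3 and 4 lay at 7.96 and 8.24 against 7.06 to 7.22 for the other 3, and IFNbeta replicates 3 and 4 at 7.92 and 8.30 against 7.25 to 7.45. In p19Arf tumors the range was 6.68 to 7.24, and in eGFP tumors it ran from 6.60 for replicate 3 to 8.18 for replicate 2. Not every paralog followed the mean, since Gzme on IFNbeta replicate 3 was the lowest of its group, at 7.42. For Gzmb the same eGFP arrays were the highest and lowest of their group, replicate 2 at 9.13 and replicate 3 at 8.56, while the combination array with the highest Gzmb, at 10.31, had a paralog mean of 7.12. Cross-hybridisation between the 5 probe sets was not tested as a part of their likeness.

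**Figure D3:**
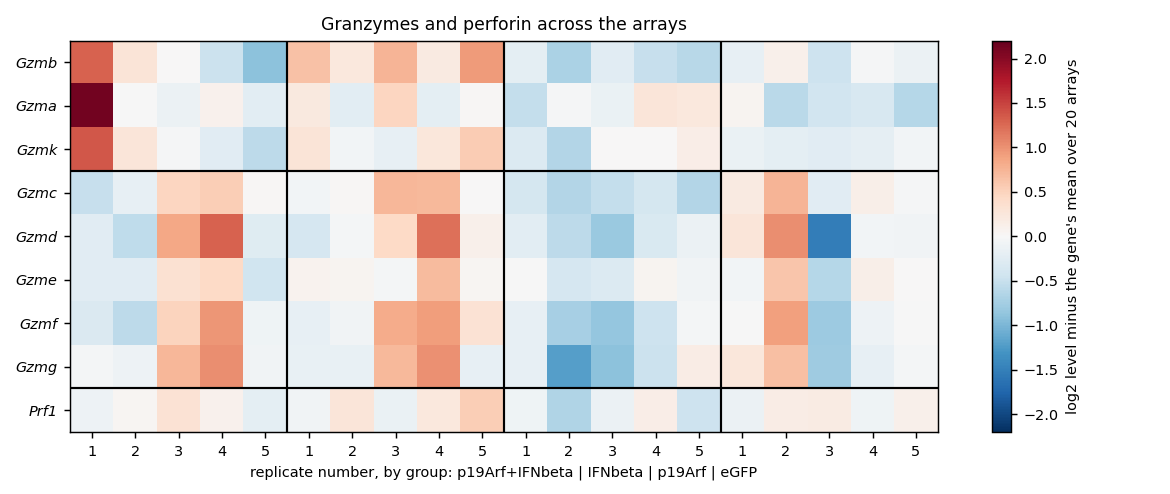
Log2 level minus the gene's mean over the 20 arrays (colour, red above and blue below) for the 9 members (rows) on each array (columns, grouped by vector). The rows Gzmc to Gzmg have similar colours on most arrays, with red columns at replicates 3 and 4 of p19Arf+IFNbeta and 4 of IFNbeta and at eGFP replicate 2, while Gzmb, Gzma and Gzmk are all deepest red on p19Arf+IFNbeta replicate 1.

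Outside the 9 members, the genes most like each pattern were sought among 18599 named genes by Pearson's r over the 20 arrays. Like Gzmb were Pitpnc1 (0.85), Cd69, an early activation marker of lymphocytes (0.85), Apod (0.84), Slamf7, a receptor of NK and activated T cells (0.82), and Rgs1 (0.81), and these were 0.72 to 0.78 for deviations from the group means. Like Gzma were Ms4a4b, Cd8b1, Themis, Klrg1 and Saa3 at 0.79 to 0.83, of which Cd8b1 and Themis belong to T cells. These rested in part on p19Arf+IFNbeta replicate 1, without which Cd8b1 had 0.55 and Klrg1 0.11. Like Prf1 were Serpinb9b (0.82), a serpin related to the granzyme B inhibitor Serpinb9, and Dcbld1, Slc16a3, Siah2 and Nabp2 (0.77 to 0.81). The mean of Gzmc to Gzmg had few close genes: Crip2 (0.86), Pcsk6 (0.81), Sema3f (0.71), Eid2 (0.70) and Klk1b27 (0.69), and 3 of the 18599 reached 0.71, the lowest r among the 5 paralogs themselves.

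Markers of the cells that carry granules were read beside the members. The T cell marker level, the mean of 12 measured genes of 17 listed, was 7.95 ± 0.26 in p19Arf+IFNbeta, 7.86 ± 0.17 in IFNbeta, 7.77 ± 0.09 in p19Arf and 7.72 ± 0.12 in eGFP tumors. It ran from 7.73 to 8.38, 7.73 to 8.14, 7.71 to 7.94 and 7.61 to 7.89 in these groups, and the highest array was p19Arf+IFNbeta replicate 1. Of the 12 genes 9 had a higher mean in the combination than in eGFP, among them Cd8b1 (8.63 against 7.93, adjusted p = 0.234), Cd8a and Cd3d. The other 3 had a lower mean, among them Cd4 (7.71 against 7.89), and 0 of the 12 passed. The NK cell marker level of 14 genes was 7.23 ± 0.25, 7.25 ± 0.09, 7.14 ± 0.09 and 7.14 ± 0.16 in the same order. Of the 14 genes 11 had a higher mean in the combination and 10 in IFNbeta than in eGFP tumors, with medians of 0.09 and 0.14. The defining markers Ncr1 and Klrb1c went the other way, with group means of 6.07 to 6.29 and 6.15 to 6.30, each highest in eGFP tumors. None of the 14 passed in any comparison.

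Gzma, Gzmb and Gzmk were high where T cell markers were high, with r = 0.70, 0.61 and 0.76 over the 20 arrays, but 0.26, 0.39 and 0.49 without p19Arf+IFNbeta replicate 1. With NK cell markers they had 0.61, 0.65 and 0.70, and 0.14, 0.48 and 0.44 without that array. With T cell markers, for Prf1 r was 0.23 and for the mean of Gzmc to Gzmg it was -0.17. With the macrophage and monocyte marker level, 10 genes, Gzmb had r = 0.68, Gzmk 0.59, Gzma 0.06 and the paralog mean 0.04. Without p19Arf+IFNbeta replicate 1, r with that level was 0.68, 0.65, -0.25 and 0.07 in the same order. That level was 10.0 ± 0.35 in p19Arf+IFNbeta, 10.2 ± 0.17 in IFNbeta, 9.96 ± 0.21 in p19Arf and 10.1 ± 0.15 in eGFP tumors, and all 10 genes had a lower mean in p19Arf than in eGFP tumors.

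Markers of skeletal muscle also had higher means with each insert than with eGFP. Their level, the mean of 8 genes, was 8.38 ± 0.77 in p19Arf+IFNbeta, 8.45 ± 0.93 in IFNbeta, 8.00 ± 0.80 in p19Arf and 7.45 ± 0.35 in eGFP tumors. It ran from 7.24 to 9.22, 7.18 to 9.74, 7.09 to 8.94 and 7.06 to 7.97 in these groups. All 8 genes had a higher mean in the combination, in IFNbeta and in p19Arf than in eGFP tumors, with medians of 0.94, 0.95 and 0.55, and also on the arrays with an IFNbeta insert than on those without (0.67), but 0 passed. With the muscle level the 9 members had r of -0.11 to 0.23 over the 20 arrays. The part of cell content in the granzyme values was not tested.

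**Figure D4:**
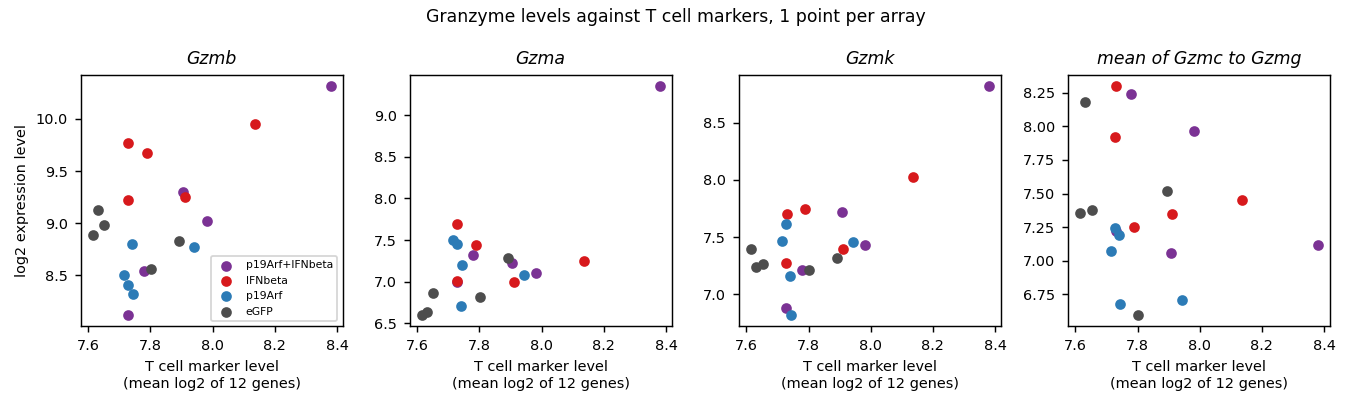
Log2 level of Gzmb, Gzma, Gzmk and the mean of Gzmc to Gzmg (y axes) against the T cell marker level, the mean log2 level of 12 genes (x axis), with 1 point per array coloured by vector. The array at the far right, p19Arf+IFNbeta replicate 1 at 8.38, is the highest point for Gzmb, Gzma and Gzmk and lies low for the paralog mean, at 7.12.

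Partner genes of the granule pathway were read from 6 lists, and 0 genes of any list passed in any comparison. Of 15 measured regulators of cytotoxic genes, 14 had a higher mean in IFNbeta than in p19Arf tumors, with a median difference of 0.17 against -0.03 over all genes. Stat4, which carries interleukin 12 signals, was at 8.34 in IFNbeta against 7.68 in p19Arf tumors (adjusted p = 0.170). All 5 arrays were above, as for 0.757% of all genes. Bhlhe40 was at 9.71 against 9.21 in the same comparison. Against eGFP, 11 of the 15 had a lower mean in p19Arf tumors (median -0.07), with Stat4 at 7.68 against 8.17 and Id2 at 10.7 against 11.2. Tbx21, the T-box factor of cytotoxic lymphocytes, was at 7.95 in p19Arf+IFNbeta against 7.56 in eGFP tumors (adjusted p = 0.234).

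Granule exocytosis partners, 16 measured genes, had a higher mean in IFNbeta than in eGFP tumors for 14 genes, with a median difference of 0.06 against -0.02. Ctsh was at 9.95 in IFNbeta against 9.67 in eGFP tumors, and Nkg7, a granule membrane protein, at 9.21 against 8.78. Vamp7, a vesicle fusion protein, was at 9.12 in p19Arf+IFNbeta against 9.95 in eGFP tumors (adjusted p = 0.234), and Unc13d and Stxbp2, which prime granules for release, were at 7.69 against 7.44 and 10.1 against 9.87. Inhibitors and receptors of granzymes, 5 measured genes, all had a lower mean in p19Arf+IFNbeta and in p19Arf than in eGFP tumors, with medians of -0.38 and -0.25. Serpinb9b was at 7.44 in IFNbeta against 6.91 in p19Arf tumors (adjusted p = 0.170), with all 5 arrays above, as for 0.757% of all genes. Serpinb9, an inhibitor of granzyme B, was at 9.11 against 8.72 in the same comparison.

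Genes listed as granzyme and perforin targets were split, with 9 of 15 higher and 6 lower in the combination than in eGFP tumors (median 0.03). Apex1, a DNA repair enzyme cleaved by granzyme A, lay at 9.46 in p19Arf+IFNbeta and 9.43 in p19Arf against 9.75 in eGFP tumors (adjusted p = 0.235 and 0.661). In p19Arf tumors it was below all eGFP arrays, as for 0.441% of all genes. Gsdmd, a pore protein of pyroptosis also on the list, was at 9.30 in p19Arf+IFNbeta against 8.72 in eGFP tumors (adjusted p = 0.234). Whether granzymes cleave the Gsdmd protein was not examined. Other killing ligands and cytokines, 12 genes, had 5 higher and 7 lower means in IFNbeta than in eGFP tumors (median -0.04). Of these Tnfsf10, the death ligand TRAIL, was at 8.14 in IFNbeta against 7.79 in eGFP tumors, and Il15, a growth factor of cytotoxic lymphocytes, at 8.88 against 8.54. Related granule proteases outside the 9 members, 8 genes, had 5 higher and 3 lower means in IFNbeta than in eGFP tumors (median 0.09), and Gzmn, which lies between Gzmg and Gzmf, had group means of 4.98 to 5.10.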

How the data were processed

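The table held log2 expression values of 35556 probe sets on 20 biotin-labelled Affymetrix arrays, as the authors deposited them. The base was read from the range of 2.33 to 14.7. The submitters' processing notes name Affymetrix Expression Console and GCOS. For summarisation, normalization and background correction the method was not given in the sources used here. The values were taken without further background correction. Gene names came from the platform annotation, brought up to date with the gene table of GRCm38.p6. Probe sets with several symbols (1621), or not listed (12146), were not used. Where a gene had more than 1 probe set the brightest on average was kept, with no filter on low values.

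A model with 1 mean per vector group was fitted to all 20 arrays and all 19938 genes with limma 3.58.1 in R 4.3.3 (16 residual degrees of freedom, eBayes), with 2-sided tests and Benjamini-Hochberg adjustment over all genes within a comparison. The fit was tested on simulated data. The 9 members, the 17 lists (169 of 193 genes measured) and the tests were chosen with earlier results of these data known. All 9 members are named, and from a list at most 3 genes per comparison, those of smallest unadjusted p. Genes alike in pattern are the 5 of highest r, leaving out predicted models. Other scalings, moderation, array weights, the array spread, filters, fewer arrays and a block were tried.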

Additional observations from a re-analysis of the deposited data

Results flagged for a closer look

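Of 36 groups of 5 arrays examined, 1 for each member and vector group, 2 held an array far from the others by Dixon's criterion. Chance alone flags about 1 in 20 groups. Gzma was at 9.36 on p19Arf+IFNbeta replicate 1, whereas the other 4 combination arrays lay at 6.996 to 7.32. On the same array Gzmb, at 10.31, and Gzmk, at 8.82, were also the highest of their groups, as were the T cell marker level, at 8.38, and the NK cell marker level, at 7.62. Gzme was at 8.16 on IFNbeta replicate 4, against 7.42 to 7.53 on the other 4 arrays, and Gzmd, at 8.19, and Gzmg, at 9.07, were highest of their group there too. The cause was not tested for either array.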

How the results depend on the processing

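Of 2166 member differences recomputed under other settings, 2091 kept their direction and their side of the threshold. Another 66 changed sign (51 of them when an array was left out) and 9 passed only there. Many of the 2166 could not change sign. Leaving out an array of neither group compared, other probe set rules, the moderation and the block left a difference as it was. For Gzmk, p19Arf minus eGFP was -0.016 with median centring and -0.013 with quantile normalization, and p19Arf vectors minus the rest -0.036 and -0.033. With array weights, p19Arf+IFNbeta minus eGFP was 0.011 for Gzmc and 0.13 for Gzme, and p19Arf+IFNbeta minus IFNbeta 0.10 for Gzmk. With the array spread as a covariate, p19Arf+IFNbeta minus eGFP was -0.098 for Gzmf and 0.041 for Prf1, and p19Arf+IFNbeta minus IFNbeta -0.12 for Gzmg and 0.24 for Gzmk. Without the 5 arrays of lowest spread, p19Arf+IFNbeta minus eGFP was -0.13 for Gzmf and 0.037 for Prf1, and p19Arf+IFNbeta minus IFNbeta 0.023 for Gzmb and 0.27 for Gzmk. As single arrays were left out, IFNbeta minus eGFP ran from -0.019 to 0.61 for Gzmd and from -0.0046 to 0.30 for Gzme, and p19Arf minus eGFP from -0.062 to 0.14 for Gzmk. In p19Arf+IFNbeta minus eGFP the ranges were -0.13 to 0.42 for Gzmb, -0.21 to 0.058 for Gzmc, -0.071 to 0.56 for Gzmd, -0.20 to 0.11 for Gzme, -0.12 to 0.32 for Gzmf and -0.090 to 0.041 for Prf1. In p19Arf+IFNbeta minus IFNbeta they were -0.11 to 0.48 for Gzma, -0.32 to 0.18 for Gzmd, -0.12 to 0.25 for Gzmg and -0.32 to 0.17 for Gzmk. In p19Arf+IFNbeta minus p19Arf they were -0.026 to 0.56 for Gzma and -0.0070 to 0.21 for Gzme, in IFNbeta minus p19Arf -0.032 to 0.17 for Gzma, and in p19Arf vectors minus the rest -0.15 to 0.092 for Gzmk.

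Counts of all genes that passed depended on the settings. With array weights they were 5 in IFNbeta against eGFP, 166 in p19Arf+IFNbeta against eGFP, 1730 in p19Arf+IFNbeta against IFNbeta, 4495 in IFNbeta against p19Arf, 12 for the IFNbeta vectors and 5197 for the p19Arf vectors. The members that passed with weights were Gzmb, Gzmc, Gzmf, Gzmg and Prf1 in IFNbeta against p19Arf, and Gzmc and Prf1, both lower, for the p19Arf vectors. The other 2 passes were for the p19Arf vectors with an array left out: Gzmb at -0.57 without p19Arf+IFNbeta replicate 1 (adjusted p = 0.0498) and Gzmc at -0.46 without p19Arf replicate 1 (adjusted p = 0.0461). In IFNbeta against p19Arf, 0 genes passed with quantile normalization, with the spread as a covariate, with only the groups compared and without the 5 arrays of lowest spread, and 2 with only genes above the median level. For the last setting the count was 945 for the p19Arf vectors and 1 in p19Arf+IFNbeta against IFNbeta, which was also 1 with median centring. Without the 5 arrays of lowest spread it was 1 in IFNbeta against eGFP and 3 in p19Arf+IFNbeta against eGFP. Leaving out single arrays gave 0 to 84 in p19Arf+IFNbeta against eGFP (84 without eGFP replicate 1), 0 to 2351 in p19Arf+IFNbeta against IFNbeta (2351 without IFNbeta replicate 3), 0 to 28 in IFNbeta against p19Arf (28 without p19Arf replicate 1), and 0 to 3892 for the p19Arf vectors (3892 without IFNbeta replicate 3). The causes were not tested.

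The groups share replicate numbers, but these did not pair the arrays: over 30 same-number pairs the correlation of deviations from the group means ran from -0.62 to 0.66 (median -0.05), and 3 of 20 arrays correlated best with their own number. With the number as a replicate block, 1 gene passed in IFNbeta against p19Arf, and no member's call changed.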
